A study of Homo sapiens with 24 samples.

Results

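VCaP is a human prostate cancer cell line in which ERG, an ETS family transcription factor, is expressed from a fusion with the promoter of the androgen-driven gene TMPRSS2. The comparison described here rests on 6 of the 24 arrays of the study, 3 of VCaP cells given a small interfering RNA against ERG (siERG) and 3 of VCaP cells given a control small interfering RNA (siControl), all of them without androgen. The siRNA was followed after 24 h by 2 days of hormone-depleted culture and then by 16 h of ethanol (EtOH), the vehicle of the androgen dihydrotestosterone (DHT). The replicates carry the letters A, B and C and are biological replicates per the labels. They come from a single cell line, and neither siRNA's sequence was used here, so an effect of this siRNA and an effect of losing ERG cannot be told apart. A further 6 VCaP arrays, with the same siRNAs and 10 nM DHT in place of EtOH, entered the same statistical fit and are set beside the results at the end. The question the comparison addresses is which transcripts depend on ERG when the androgen receptor has no added ligand. The array was the Affymetrix HG-U133 Plus 2.0, and the values are the deposited linear intensities of its probe sets.

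ETS factors bind DNA through a conserved domain that recognises the core GGAA. In the normal prostate epithelium ERG is close to silent. The fusion places it under androgen control, and ERG then occupies many of the enhancers that the androgen receptor and FOXA1 use, where it can raise some genes and lower others. ERG has been tied to invasion, to loss of luminal differentiation and to repression of part of the androgen programme.

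The array medians were 50.48, 50.85 and 49.4 with siControl and 52.77, 51.96 and 53.25 with siERG. They lay close together, but every siERG median was above every siControl median. No values were missing. Array pairs within a group correlated at r = 0.9913 to 0.9926 over the probe sets tested and pairs across the 2 groups at 0.9874 to 0.9895, values that describe the arrays and carry no test. All 9 luminal prostate markers examined (KLK3, KLK2, TMPRSS2, HOXB13, FOXA1, KRT8, KRT18, EPCAM and CDH1) lay above the array median on 6 of 6 arrays, and the basal keratins KRT5 and KRT14 lay above it on 0 of 6. The 14 markers of fibroblasts, endothelium and leukocytes summed to 1059 to 1142 on the siControl arrays and to 856 to 934 on the siERG arrays, and without LYZ, which fell, to 715 to 762 and 725 to 818. The ratio of the 3' to the 5' control probe sets of GAPDH, a sign of RNA integrity, was 1.09 ± 0.024 (SD, n = 3) with siERG and 1.05 ± 0.013 with siControl, which did not overlap (exact permutation test, two-sided, p = 0.1, the smallest p that 3 against 3 allows). That ratio moves with the groups, and when it was entered as a covariate 275 of the 12840 genes tested were called in place of 1444, with standard errors 1.48 times larger at the median. Its part in the results was not tested beyond that fit. The same ratio for ACTB was 3.05 ± 0.45 and 3.31 ± 0.32 (exact permutation p = 0.6), and 1193 genes were called with it as the covariate.

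ERG itself was lower on every siERG array. Its probe set of highest level read 1029, 1115 and 950.2 on the 3 siControl arrays and 569.7, 592 and 567 on the 3 siERG arrays, a mean 44.1% lower. The second read 671, 629.8 and 621 against 335, 322 and 337, or 48.3% lower. On the third the values were 174, 157 and 153 against 88.7, 89.3 and 75.0, or 47.8% lower, and on the last 58.5, 60.3 and 51.5 against 26.5, 25.0 and 31.7, or 51.1% lower. The groups did not overlap on any of the 4 probe sets, and the fall was partial and similar in size on each. The last lay near the array median with siControl and below it with siERG. All but the third are marked as open to cross-hybridisation (_x_at or _s_at). For the gene, on the scale of log2(intensity + 16) used throughout, the change was -0.82 ± 0.057 (SE, n = 3 and 3, adjusted p = 1.83e-05). Adjusted p values are two-sided, from limma, with Benjamini-Hochberg adjustment over the 12840 genes tested, and the values after ± are standard errors unless marked SD.

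**Figure D1:**
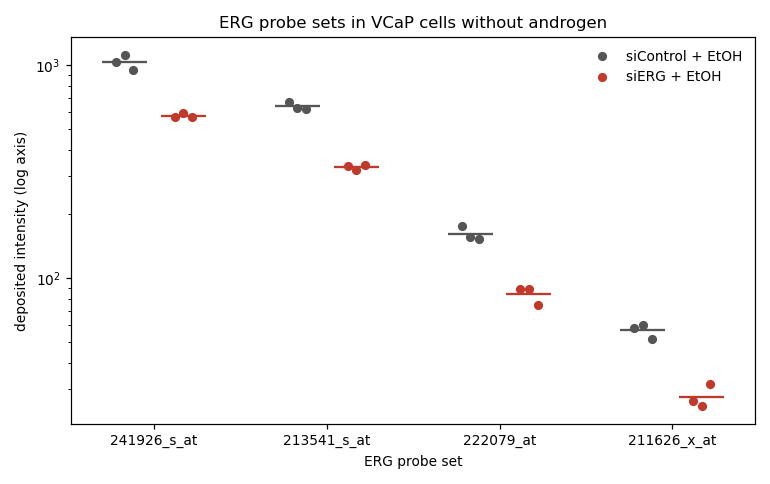
Deposited intensity (log axis) of the 4 ERG probe sets on the siControl (grey) and siERG (red) arrays of VCaP cells with EtOH; each point is 1 array and each line a group mean. On all 4 probe sets the 3 siERG arrays lie below the 3 siControl arrays.

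TMPRSS2, the 5' partner of the fusion, moved the other way. Its probe set read 1757, 1737 and 1674 with siControl and 2087, 2343 and 2052 with siERG, groups that did not overlap, and the change was 0.32 ± 0.065 (adjusted p = 0.0101). In limma's fit of single probe sets, a second TMPRSS2 probe set rose by 0.52 ± 0.11 (adjusted p = 0.015) and another by 0.35 ± 0.072 (adjusted p = 0.014), while the last, near the array median, had a change of 0.079 ± 0.18 (adjusted p = 0.837). KLK3, which encodes prostate-specific antigen, read 3161, 3047 and 3181 against 3269, 3301 and 3009.8. Its groups overlapped and its change was 0.028 ± 0.064 (adjusted p = 0.833). Among the 20 ETS family members tested, 3 fell and 1 rose, against 5.87% fallen and 5.37% risen of all 12840 genes. Besides ERG, SPDEF, a luminal epithelial ETS factor, fell from 628, 571 and 574 to 392.4, 426 and 401 (change -0.52 ± 0.059, adjusted p = 0.000425). ELK4, an androgen-responsive ETS gene, read 1697, 1877 and 1609.8 and then 1366, 1364 and 1326 (change -0.35 ± 0.059, adjusted p = 0.00419). ELF5, an epithelial ETS factor, rose from 91.1, 85.3 and 87.5 to 115.9, 111 and 119 (change 0.34 ± 0.048, adjusted p = 0.00161). The other 16 did not pass the test. With all probe sets of a gene averaged, ELK4 had -0.092 (adjusted p = 0.344) and ELF5 0.25 (adjusted p = 0.0766), SPDEF was at -0.29, and 2 members were called as fallen and 0 as risen. Without the probe sets marked as open to cross-hybridisation (_x_at and _s_at), ELK4 had -0.17 (adjusted p = 0.378), and 1 member was called as fallen and 0 as risen.

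Over the whole array, 1444 of 12840 genes (11.2%) passed an adjusted p of 0.05, 690 higher with siERG (5.37%) and 754 lower (5.87%). Most of the differences were small. A change of at least 0.25 was seen for 474 of the risen and 547 of the fallen genes, and one of at least 0.5 (1.41-fold) for 78 and 145. At 1 or more (2-fold), 22 genes fell and 2 rose, and the median change of all genes tested was 0.008. Centring each array on its median, in place of the deposited scaling, called 393 risen and 1167 fallen genes, so that the risen share was 25.2% in place of 47.8%. Without 1 of the EtOH arrays the count was 866 (siControl A), 895 (siControl B), 943 (siControl C), 1030 (siERG A), 802 (siERG B) or 870 (siERG C). Of the 206 called genes that the naming rule selected, 139 were called in each of those 6 fits and 74 with the GAPDH ratio as covariate.

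**Figure D2:**
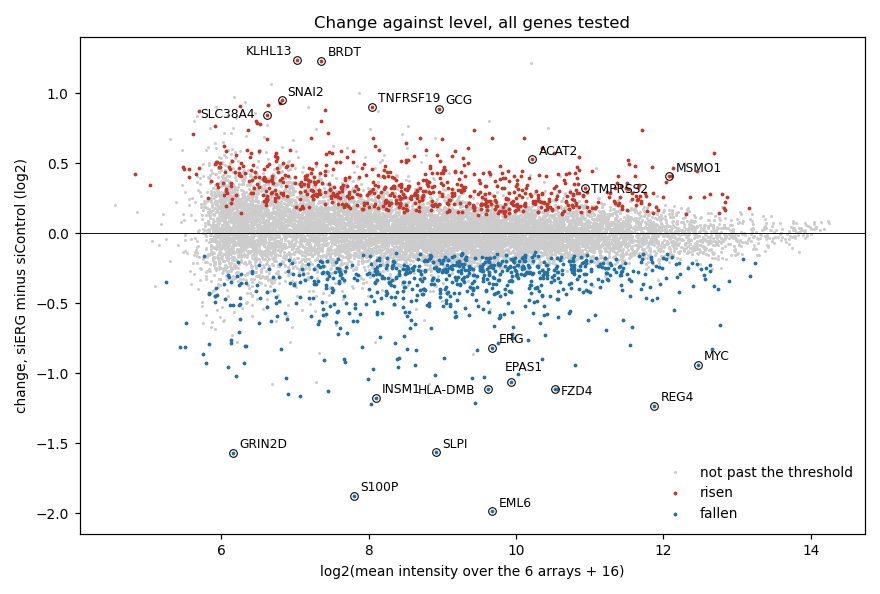
Change of each of the 12840 genes tested (siERG minus siControl with EtOH, log2 scale) against the log2 of its mean intensity over the 6 arrays plus 16; grey genes did not pass the test, red rose, blue fell, and circled genes are named. The 22 genes that fell by 1 or more have no counterpart of similar number above, where 2 genes rose by as much.

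The largest fall was that of EML6, a microtubule-binding protein of the EMAP family, at 1362, 1352 and 1171 with siControl and 317, 280.1 and 348 with siERG. The level with siERG was 3.96 times lower on the log2(intensity + 16) scale (change -1.99 ± 0.10, adjusted p = 4.35e-06), and a second probe set fell by 1.56. S100P, a secreted and cytoplasmic calcium-binding protein, went from 327, 345 and 334 to 73.7, 85.0 and 80.5, 3.67 times lower (change -1.88 ± 0.11, adjusted p = 5.8e-06). SLPI, an inhibitor of serine proteases in mucosal fluids, read 691, 645 and 782 and then 224, 214 and 243, 2.96 times lower (adjusted p = 4.35e-06). In none of these 3 genes did a siERG array come near a siControl array.

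Other products of secretory epithelium stood among the 15 largest falls. REG4, a secreted lectin of the gut that marks some prostate cancers, read 5187, 5252 and 5353 with siControl and 2259, 2374 and 2061 with siERG (change -1.23 ± 0.12, adjusted p = 0.000143). TGM4, the prostate transglutaminase that clots semen, read 977, 938 and 957 against 393, 445 and 378 (change -1.21 ± 0.11). LYZ, lysozyme, read 315, 384 and 344 against 131, 179 and 117 (change -1.22 ± 0.14). In each of the 3 every siERG array lay well under the lowest siControl array, where lack of overlap was a condition of the choice. FAM3D, a secreted cytokine-like protein, changed by -1.16, and GPX2, the glutathione peroxidase of mucosal epithelium, by -1.12. CA4, a membrane-anchored carbonic anhydrase, fell from 164, 141 and 144 to 60.6, 56.8 and 58.3 (change -1.15 ± 0.10).

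Receptors and regulators made up most of the rest. FZD4, a WNT receptor, read 2000.4, 2086 and 1907 with siControl and 967, 944 and 836 with siERG (change -1.11 ± 0.11, adjusted p = 0.000191), and ADRA2A, the alpha-2A adrenergic receptor, 2146, 2023 and 1969 and 970.2, 836 and 1009 (change -1.11 ± 0.079). Neither receptor had a siERG array within the siControl range, which the choice of genes required. INSM1, a zinc finger factor of neuroendocrine cells, fell from 382, 369 and 341 to 151, 136 and 172 (change -1.18 ± 0.077). EPAS1, which encodes the hypoxia factor HIF-2alpha, fell from 1338, 1396 and 1176 to 586, 639 and 615 (change -1.06 ± 0.077, adjusted p = 2.47e-05). HLA-DMB, which loads peptides onto MHC class II, fell from 1063, 1022 and 1092 to 507, 473 and 462 (change -1.12 ± 0.064). GRIN2D, an NMDA receptor subunit, was the least certain of the 15. It read 88.8, 113 and 71.1 against 31.4, 16.9 and 12.98 (change -1.57 ± 0.41, adjusted p = 0.0356), and its adjusted p was 0.0618 to 0.114 without siControl A, B or C or without siERG B or C. The other 14 were called in all 6 of those fits, and 13 of the 15 with the GAPDH ratio as covariate.

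The 15 genes that rose most had smaller changes, many of them at low intensity. KLHL13, a substrate adaptor of a ubiquitin ligase needed in mitosis, read 84.0, 52.1 and 52.5 with siControl and 180.0, 149.6 and 173 with siERG (change 1.24 ± 0.20, adjusted p = 0.00343). BRDT, the testis-specific BET bromodomain protein, went from 91.3, 72.8 and 82.6 to 220.1, 196 and 228 (change 1.23 ± 0.16, adjusted p = 0.00108). These were the only 2 genes to rise by 1 or more. SNAI2, the transcriptional repressor Slug, read 55.7, 57.2 and 70.8 and then 119.8, 144 and 135 (change 0.95 ± 0.10, adjusted p = 0.000192). TNFRSF19, a TNF receptor family member, went from 173, 161 and 168 to 298, 326 and 359.7 (change 0.90 ± 0.059, adjusted p = 1.23e-05). GCG, the preproglucagon gene, read 366, 334 and 296 against 595, 574 and 718 (change 0.89 ± 0.10). SLC38A4, an amino acid transporter, had the tightest pair of groups, 57.1, 53.7 and 52.6 against 109, 113 and 111 (change 0.85 ± 0.039, adjusted p = 2.3e-06).

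Of the other 9, NAP1L3 (a nucleosome assembly protein family member) rose by 0.88, AFF3 (of the AF4 family of elongation factors) by 0.79, ZFP69B (a zinc finger protein) by 0.80, INSL5 (an insulin-like peptide) by 0.80 and DBIL5P (a pseudogene) by 0.91. The remaining 4 were NPPC (C-type natriuretic peptide) at 0.93, SCN3B (a sodium channel beta subunit) at 0.92, ORM1 (an acute-phase plasma protein) at 0.87 and BORCS6 (of a complex that positions lysosomes) at 0.78. Each of these 4 lost its call without some single array. NPPC had adjusted p of 0.0665 to 0.101 without siControl A or B or any siERG array, and SCN3B of 0.055 to 0.0804 without siControl B or C or siERG B or C. ORM1 had 0.0545 to 0.0563 without siControl B or C or siERG C, and BORCS6 0.0692 to 0.0778 without siControl A or siERG B or C. With the GAPDH ratio as covariate 7 of the 15 risen genes were called, namely KLHL13, BRDT (at the threshold itself), SNAI2, TNFRSF19, GCG, NAP1L3 and SLC38A4.

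**Figure D3:**
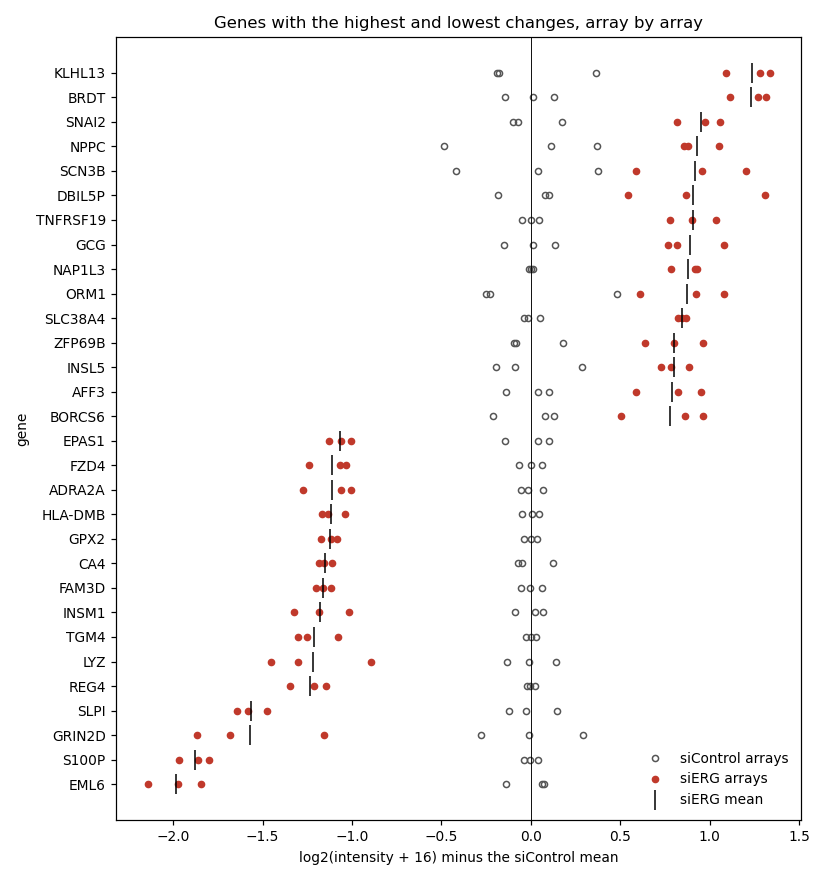
Value of log2(intensity + 16) on each array minus the siControl mean, for the 15 genes with the highest and the 15 with the lowest change past the threshold; open grey circles are siControl arrays, red circles siERG arrays and black bars the siERG means. Groups do not overlap for any of the 30 genes, which the choice of genes required, and the 3 siERG means furthest from 0 are those of EML6, S100P and GRIN2D.

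The 250 bases before the start of the genes at both ends of the ranking are shown for the ETS core, GGAA, with each match on either strand (GGAA or TTCC) in capitals. They come from RefSeq on GRCh38.p14. S100P lies on the plus strand at chr4:6693628-6693877 and REG4 on the minus strand at chr1:119811461-119811710, both among the largest falls; KLHL13 lies on the minus strand at chrX:118116811-118117060 and BRDT on the plus strand at chr1:91949121-91949370, the 2 largest rises.
S100P: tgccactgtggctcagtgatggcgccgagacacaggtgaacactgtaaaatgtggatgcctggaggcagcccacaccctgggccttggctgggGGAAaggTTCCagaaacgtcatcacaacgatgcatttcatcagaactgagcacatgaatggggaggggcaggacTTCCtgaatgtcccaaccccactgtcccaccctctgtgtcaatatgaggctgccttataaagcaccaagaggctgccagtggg
REG4: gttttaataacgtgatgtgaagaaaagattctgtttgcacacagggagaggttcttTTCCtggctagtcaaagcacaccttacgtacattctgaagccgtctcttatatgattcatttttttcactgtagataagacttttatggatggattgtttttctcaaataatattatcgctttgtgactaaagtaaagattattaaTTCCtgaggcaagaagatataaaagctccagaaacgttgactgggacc
KLHL13: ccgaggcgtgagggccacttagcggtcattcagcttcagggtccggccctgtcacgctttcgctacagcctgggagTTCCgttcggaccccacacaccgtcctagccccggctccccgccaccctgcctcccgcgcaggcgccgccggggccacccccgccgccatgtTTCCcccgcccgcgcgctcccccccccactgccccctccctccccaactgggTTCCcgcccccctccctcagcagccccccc
BRDT: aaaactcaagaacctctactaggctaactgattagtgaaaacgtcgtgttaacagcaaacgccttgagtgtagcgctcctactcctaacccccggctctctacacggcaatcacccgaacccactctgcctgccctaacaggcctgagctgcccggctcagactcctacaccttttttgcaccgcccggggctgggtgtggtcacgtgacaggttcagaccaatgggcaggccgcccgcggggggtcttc
S100P has 3 matches, REG4 2, KLHL13 3 and BRDT 0. The other 2 genes that the same rule chose have 2 (GRIN2D, fallen) and 1 (NPPC, risen). The fallen genes thus have 3, 2 and 2 matches and the risen genes 3, 0 and 1, too few windows to compare the ends. The core is so short that 92.5% of the 10427 tested genes with an entry hold at least 1 in the same window, with 2.97 matches on average. It was in 91.6% of the 571 risen and 90.7% of the 626 fallen genes with an entry. The longer sequence CCGGAAG, which contains the core and is preferred by many ETS proteins, was in 15.8% of all these windows on either strand. The share was 12.1% for the risen and 9.74% for the fallen genes. Among genes that rose by 0.5 or more it was in 2 of 64 windows (3.12%), and among those that fell by 0.5 or more in 5 of 102 (4.9%). A match describes the letters of the window only, and ERG binding was not measured here.

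Genes that the field has linked to ERG in prostate cancer were mostly called, and mostly lower. This list, like the others, was chosen with earlier results of these data known, so its share is not independent support. Of 28 tested, 13 fell (46.4%, against 5.87% of all genes) and 2 rose (7.14%, against 5.37%), with a median change of -0.159 against 0.008 for all genes. PLA1A, a phospholipase, read 2261, 2281 and 2462 with siControl and 1280.3, 1181 and 1164 with siERG (change -0.94 ± 0.059, adjusted p = 1.03e-05). SOX9, a transcription factor of prostate progenitors, fell from 269, 246 and 239.7 to 124, 123 and 128 (change -0.92 ± 0.069, adjusted p = 3.25e-05). KCNS3, a potassium channel subunit, went from 469.6, 476 and 471 to 348, 341 and 346 (change -0.44 ± 0.035, adjusted p = 4.6e-05), a modest change with hardly any spread. HLA-DMB and FZD4, described above, were also among the 13. HPGD, which degrades prostaglandins, rose from 897, 905 and 867 to 1144, 1149 and 1127 (change 0.35 ± 0.052, adjusted p = 0.00198). ADAMTS1, a secreted metalloprotease, read 3731, 3970.4 and 3556 and 4861, 5292 and 4803 (change 0.41, adjusted p = 0.0109); its adjusted p was 0.0501 without siERG B, which left 1 risen member. Without single EtOH arrays 9 to 11 were called as fallen, and 8 with the GAPDH ratio as covariate.

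S100 proteins and annexins are calcium-binding proteins of the cytoplasm and membranes. Of 18 tested, 5 fell and 0 rose (27.8% against 5.87% fallen of all genes), with a median of -0.067 and 2 members higher at an unadjusted p under 0.05. Here and below, counts at an unadjusted p are given without the share of all genes and show no lean of a list. With each EtOH array left out in turn the fallen count was again 5, and after quantile normalization 2 members were called as risen beside 5 as fallen. ANXA1, annexin A1, read 1056, 1066 and 1009 against 662, 700.2 and 712 (change -0.58 ± 0.065, adjusted p = 0.000374). ANXA5 went from 2214, 2317 and 2191 to 1641, 1676 and 1748 (change -0.41 ± 0.048, adjusted p = 0.000545) and ANXA11 from 2241, 2287 and 2321 to 1732, 1709.6 and 1699 (change -0.41 ± 0.055, adjusted p = 0.00114). S100P and S100A6 were the other two. With probe sets averaged ANXA11 had -0.19 (adjusted p = 0.101). No array of 1 group reached into the other in any of the annexins named, which were chosen by smallest adjusted p.

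Secretory and mucosal products gave 5 fallen and 2 risen of 24 tested (20.8% and 8.33%, median -0.086), and the fallen count was 5 without each EtOH array in turn. TSPAN1, a tetraspanin of secretory epithelium, was among the wider changes of the list: it read 1305, 1411 and 1434 with siControl and 713, 664 and 664 with siERG (change -1.01 ± 0.094, adjusted p = 0.000123). PSCA, prostate stem cell antigen, read 85.9, 87.8 and 82.3 and 35.9, 38.0 and 53.9 (change -0.80 ± 0.10, adjusted p = 0.000548). TSPAN8 fell from 3579, 3913 and 3648 to 2419, 2319 and 2238 (change -0.67 ± 0.086, adjusted p = 0.000923). AZGP1, zinc-alpha-2-glycoprotein, a luminal secretory product, went up from 108, 142 and 128 to 197, 172 and 219 (change 0.58 ± 0.10, adjusted p = 0.00516), and ORM1 was the other risen member. Without siControl C or siERG C 1 member was called as risen. Among 31 proteases and protease inhibitors 3 fell and 4 rose (9.68% and 12.9%, against 5.87% and 5.37% of all genes, median 0.002). SLPI led the falls, and HPN, the membrane protease hepsin, changed by -0.41 (adjusted p = 0.00579). Of the 4 risen, 2 are serpins: SERPINI1, neuroserpin, read 1148, 1201 and 1129 and then 1652, 1835 and 1719 (change 0.57 ± 0.07, adjusted p = 0.000642), and SERPINE2 283, 269 and 305 and then 410.3, 437 and 391.5 (change 0.51 ± 0.071, adjusted p = 0.00136). With probe sets averaged SERPINE2 had 0.21 (adjusted p = 0.288).

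Glycosyltransferases, the Golgi enzymes that build sugar chains, gave 9 fallen and 4 risen members of 37 tested (24.3% and 10.8%, median -0.067). ST6GAL1, which caps N-glycans with sialic acid, read 90.9, 84.5 and 83.7 with siControl and 44.1, 40.5 and 43.5 with siERG (change -0.80 ± 0.049, adjusted p = 8.26e-06). ST6GALNAC1, which makes sialyl-Tn on O-glycans, fell from 1009, 1031 and 1092 to 628, 708 and 715 (change -0.60 ± 0.06, adjusted p = 0.000191), and GALNT7, an enzyme of O-glycan synthesis, from 2099.5, 2201 and 1982 to 1593, 1545 and 1618 (change -0.40 ± 0.053, adjusted p = 0.00114). C1GALT1, which extends O-glycans to core 1, rose from 363, 355 and 345 to 452, 452 and 497 (change 0.38 ± 0.051, adjusted p = 0.00114). HS3ST1, a heparan sulfate sulfotransferase, rose from 384, 382 and 363 to 575, 592 and 661 (change 0.67 ± 0.10, adjusted p = 0.00198); with probe sets averaged it had 0.22 (adjusted p = 0.0983). The fallen count was 6 to 8 without single EtOH arrays and 3 with the GAPDH ratio as covariate. Without siControl B, siControl C or siERG B 2 were called as risen.

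Signalling pathways were touched at receptors, ligands and modulators. In the WNT pathway 5 of 32 tested members fell and 2 rose (15.6% and 6.25%, median 0.01). Of the 5 that fell, 3 are receptors: FZD4 above, the co-receptor ROR1 (188, 198 and 182 to 112, 120.5 and 132.7, change -0.58 ± 0.058, adjusted p = 0.000191) and FZD3 (1689.6, 1595 and 1380.3 to 1196, 1026 and 1017, change -0.52 ± 0.09, adjusted p = 0.00482). The ligand WNT5A rose from 275, 283 and 256 to 356, 363 and 356 (change 0.38 ± 0.059, adjusted p = 0.00242). Without siControl A, siControl B, siERG A or siERG C 3 members were called as fallen, and without siControl C, siERG B or siERG C 1 as risen.

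The Notch pathway had 6 fallen and 0 risen of 26 tested (23.1%, median -0.018; 1 higher at an unadjusted p under 0.05). NRARP, a Notch target that feeds back on the pathway, read 418, 398 and 389 with siControl and 279, 273 and 270.2 with siERG (change -0.53 ± 0.049, adjusted p = 0.000111). DLL1, a Notch ligand, fell from 225, 211 and 198 to 129, 133.3 and 155 (change -0.56 ± 0.076, adjusted p = 0.00123). LFNG, the glycosyltransferase that tunes Notch to its ligands, changed by -0.77 ± 0.17 (adjusted p = 0.0167), and its adjusted p was 0.0599 to 0.0688 without siControl A, siControl B or siERG B. Without siControl A or siControl B 2 members of the list were called, and without siERG A or siERG B 3.

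In the TGF-beta and BMP pathway 7 of 30 members fell and 4 rose (23.3% and 13.3%, median -0.065). The activin receptor ACVR2B fell from 205, 217 and 185 to 159, 146 and 157 (change -0.36 ± 0.065, adjusted p = 0.00586) and the co-receptor TGFBR3 from 331, 298 and 294 to 249.8, 226 and 252 (change -0.32 ± 0.062, adjusted p = 0.00811), whereas the ligand TGFB2 rose from 39.0, 43.8 and 41.1 to 57.3, 62.5 and 52.7 (change 0.36 ± 0.073, adjusted p = 0.0107). With probe sets averaged TGFBR3 had -0.20 (adjusted p = 0.14). The counts shrank when arrays were left out, to 3 fallen (without siControl B, siERG B or siERG C), 4 (without siControl A or siERG A) and 1 to 3 risen (1 without siControl A, siControl C, siERG B or siERG C and 2 without siERG A), and 0 members were called with the GAPDH ratio as covariate.

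Of 36 growth factor receptors and ligands 6 fell and 0 rose (16.7%, median -0.063; 2 higher at an unadjusted p under 0.05). The list's fallen count was 4 to 7 without single arrays and 1 with the GAPDH ratio as covariate. HBEGF, an EGF receptor ligand, read 310.1, 327 and 316 and then 236, 231 and 212 (change -0.46 ± 0.054, adjusted p = 0.000528), and IGFBP2, an IGF-binding protein, 1846, 1773 and 2008 and then 1503, 1391 and 1476 (change -0.36 ± 0.057, adjusted p = 0.00281). FGF13, an intracellular FGF homologue, fell by 0.23, and PDGFA, a platelet-derived growth factor chain, by 0.33. Immediate early and MAPK feedback genes split evenly, with 4 risen and 4 fallen of 27 (14.8% each, median -0.015). JUN rose from 1185, 1151 and 1114 to 1455, 1599 and 1554 (change 0.41 ± 0.062, adjusted p = 0.00215) and ATF3, a stress-induced factor, from 323, 346 and 338 to 485, 543 and 514 (change 0.59 ± 0.077, adjusted p = 0.00096). With probe sets averaged ATF3 had 0.10 (adjusted p = 0.495), and JUN, without _x_at and _s_at probe sets, was at 0.42 (adjusted p = 0.0576). KLF4, an epithelial Krüppel-like factor, fell from 1099, 1153 and 1002 to 597, 656 and 610.2 (change -0.79 ± 0.071, adjusted p = 0.000103). Fallen members numbered 2 without siControl A or siERG B. Among 20 TNF family receptors and ligands 3 rose and 2 fell (25.0% called, median 0.02). Beside TNFRSF19, which rose, the death receptor FAS fell and read 965, 1023 and 1010.2 with siControl and 749, 718 and 716 with siERG (change -0.45 ± 0.041, adjusted p = 0.000104).

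MYC, the growth-promoting transcription factor, was the member of its list that changed most. Its probe set read 7454, 7434 and 7309 with siControl and 4615, 3165 and 3892 with siERG, 1.92 times lower (change -0.94 ± 0.11, adjusted p = 0.000499). The siControl arrays lay close together, the siERG arrays were more spread, and the groups did not overlap. Across the MYC network and ribosome biogenesis list 6 of 44 members fell and 2 rose (13.6% and 4.55%, median -0.064). Apart from MYC, MXI1, a MYC antagonist, fell from 1658, 1546 and 1633 to 1354, 1218 and 1253 (change -0.34 ± 0.054, adjusted p = 0.00314) and FBL, the nucleolar methyltransferase fibrillarin, from 3005, 2955 and 2963 to 2568, 2345 and 2341 (change -0.30 ± 0.061, adjusted p = 0.0107). The number fallen was 3 without siControl A or siERG C, 1 with the GAPDH ratio as covariate and 11 with arrays centred on their median, and the risen count was 1 without any array but siControl A.

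Genes of DNA replication gave 7 fallen and 2 risen of 46 (15.2% and 4.35%, median -0.044), and 5 of the 7 encode the MCM2-7 helicase that licenses origins (MCM2, MCM3, MCM5, MCM6 and MCM7; MCM6 and MCM7 are named after their values were seen). MCM5 read 828, 848 and 817 and then 526, 589 and 609 (change -0.52 ± 0.077, adjusted p = 0.00196), MCM2 1199.9, 1021 and 1094 and then 834, 773 and 850.2 (change -0.42 ± 0.076, adjusted p = 0.00569) and MCM3 776, 705 and 791 and then 646, 499.6 and 574 (change -0.40 ± 0.082, adjusted p = 0.0112). No siERG array reached the siControl range in these 3, which were chosen by smallest adjusted p. Without _x_at and _s_at probe sets MCM5 had -0.57 (adjusted p = 0.162). PRIM2, a primase subunit, rose from 217, 224 and 229.9 to 287, 278 and 299 (change 0.34 ± 0.05, adjusted p = 0.00179). The number fallen was 3 without siControl A or siERG B, 4 without siERG C and 1 with the GAPDH ratio as covariate, and the risen count was 1 without each of the 6 arrays. Mitosis genes gave 1 risen and 1 fallen of 43 (4.65% called against 11.2% of all genes); the difference from the replication list was not tested. Their changes were small and mostly positive, 36 of 43 against 6707 of 12840 for all genes, with a median of 0.114 against 0.008. At an unadjusted p under 0.05, 10 were higher and 1 lower, without the share of all genes to set beside them. With averaged probe sets or quantile normalization 3 were called as risen. CDC25B, a phosphatase that starts mitosis, fell from 666, 591 and 637 to 501, 519.7 and 482 (change -0.32 ± 0.066, adjusted p = 0.0105), and the risen count was 0 without siControl B, siControl C, siERG B or siERG C.

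Cholesterol synthesis and uptake was the list with the most risen members. The pathway turns acetyl-CoA into sterols in the endoplasmic reticulum under the control of SREBP2. Of 31 tested, 12 rose and 3 fell (38.7% and 9.68%, against 5.37% and 5.87% of all genes), with a median change of 0.164. ACAT2, the thiolase at the head of the pathway, read 949, 969.5 and 970.1 with siControl and 1346, 1465 and 1379 with siERG (change 0.53 ± 0.057, adjusted p = 0.000312). IDI1, the isomerase that forms the isoprene donor, went from 2704, 2654 and 2692 to 3569, 3778 and 3363 (change 0.41 ± 0.056, adjusted p = 0.00121). MSMO1, the sterol C4-methyl oxidase, went from 3681, 3825 and 3602 to 4743, 5177 and 4833 (change 0.41 ± 0.05, adjusted p = 0.000655), and NSDHL, which acts next in that demethylation, from 401, 388 and 400.1 to 527, 631 and 571 (change 0.52 ± 0.069, adjusted p = 0.00105). In all 4 the lowest siERG array exceeded the highest siControl array. They were named for the smallest adjusted p of the risen members, a choice that favours groups that do not overlap. Another IDI1 probe set, which stood for the gene without _x_at and _s_at probe sets, had 0.061 (adjusted p = 0.719). The other 8 were STARD4, SQLE, HMGCS1, EBP, INSIG1, DHCR7, HSD17B7 and SOAT1, with changes from 0.18 to 0.48, named after their values were seen.

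Of the 3 that fell, 2 export sterols from the cell. ABCG1, a cholesterol exporter, read 396, 413 and 439 and then 278, 255 and 295 (change -0.57 ± 0.066, adjusted p = 0.000487), and ABCA1, a second exporter, 66.9, 67.5 and 63.96 and then 50.9, 45.6 and 55.1 (change -0.31 ± 0.063, adjusted p = 0.0115). LBR, a nuclear envelope protein with sterol reductase activity, went from 1927, 1865 and 1822 to 1585, 1531 and 1605 (change -0.25 ± 0.043, adjusted p = 0.00448). The risen count was 9 to 11 without single EtOH arrays, 10 with arrays centred on their median, 15 after quantile normalization and 4 with the GAPDH ratio as covariate. The window before MSMO1, on the plus strand at chr4:165327419-165327668, is shown as the example of the pathway, with GGAA matches in capitals.
MSMO1: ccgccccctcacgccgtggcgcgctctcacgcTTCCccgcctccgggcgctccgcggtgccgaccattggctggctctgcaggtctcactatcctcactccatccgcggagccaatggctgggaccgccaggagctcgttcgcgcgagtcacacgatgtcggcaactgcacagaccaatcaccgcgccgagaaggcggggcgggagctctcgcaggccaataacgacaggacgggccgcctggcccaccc
It holds 1 match. The sterol element was searched as TCACNCCAC on either strand: it is in 0.796% of the 10427 windows and in 0 of the 10 windows of risen pathway genes with an entry.

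Among 27 genes of fatty acid and glycerolipid synthesis 5 rose and 2 fell (18.5% and 7.41%, median 0.143). ELOVL6, a fatty acid elongase, read 708, 764 and 687 with siControl and 937, 1084 and 1006 with siERG (change 0.48 ± 0.064, adjusted p = 0.00115), and LPIN2, a phosphatidate phosphatase, 995, 975 and 929 and 1151, 1141 and 1192 (change 0.26 ± 0.051, adjusted p = 0.00853). ELOVL4, an elongase of very long chains, fell from 369, 360.5 and 376 to 305, 306 and 306 (change -0.26 ± 0.039, adjusted p = 0.00235). The list's risen count was 2 without each siControl array and without siERG A or B, and 3 without siERG C. The fallen count was 1 without each siControl array and without siERG B or C.

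For the unfolded protein response 4 of 37 members rose and 2 fell (10.8% and 5.41%). Of its 37 changes 29 were positive (median 0.059), against 6707 of 12840 for all genes (median 0.008). With each array centred on its median, 1 member was called as risen and the median of all genes was -0.044. DNAJB9, a chaperone partner of the endoplasmic reticulum, rose from 957, 1011 and 976 to 1229.8, 1239 and 1229 (change 0.32 ± 0.042, adjusted p = 0.000938), and CREB3L4, a membrane-bound factor of prostate epithelium, fell from 899, 907 and 879 to 709.9, 689 and 749.7 (change -0.32 ± 0.048, adjusted p = 0.00236). Risen members numbered 1 without siERG B and 2 without siControl B or C; the fallen count was 1 without any siControl array or siERG A or B. The ATF4 list of stress and amino acid supply had 6 risen and 5 fallen of 28 (21.4% and 17.9%, median 0.088). PSAT1, of serine synthesis, rose from 2309, 2275 and 2267 to 2793, 2946 and 2854 (change 0.32 ± 0.048, adjusted p = 0.0019). VLDLR, a lipoprotein receptor, fell from 429, 433 and 436 to 261, 251 and 248 (change -0.74 ± 0.042, adjusted p = 5.8e-06), and SLC43A1, an amino acid carrier, from 222, 200.5 and 211 to 115.6, 149.9 and 149.7 (change -0.56 ± 0.11, adjusted p = 0.00869). Without siControl C, siERG B or siERG C 2 were called as risen, and without siERG C 3 as fallen. Of 23 p53 targets 3 rose and 3 fell (26.1% called, median 0.007): PLK2 rose from 469, 487 and 467 to 644, 662 and 652 (change 0.45 ± 0.049, adjusted p = 0.000326) and BAX fell from 355, 341 and 381 to 289.7, 299.6 and 283 (change -0.29 ± 0.052, adjusted p = 0.00574).

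Genes that androgen induces moved in both directions without androgen. Of 27 tested, 5 rose and 2 fell (18.5% and 7.41%, against 5.37% and 5.87% of all genes), and the median change was 0. The risen count was 4 to 6 without single EtOH arrays and 2 with the GAPDH ratio as covariate. MAF, a leucine zipper factor, rose from 808, 779 and 768 to 1054, 1125 and 1047 (change 0.45 ± 0.049, adjusted p = 0.000336) and TSC22D3, the glucocorticoid-induced leucine zipper, from 441, 397 and 422 to 635, 596 and 542 (change 0.48 ± 0.089, adjusted p = 0.00701). With probe sets averaged MAF had 0.21 (adjusted p = 0.0694) and TSC22D3 0.18 (adjusted p = 0.133), while MAF, without _x_at and _s_at probe sets, was at 0.34 (adjusted p = 0.107). STEAP4, a metalloreductase, fell from 194, 175 and 167 to 101, 114 and 109 (change -0.65 ± 0.059, adjusted p = 0.000104). Among 22 genes of androgen and steroid metabolism 4 fell and 0 rose (18.2%, median -0.105; 1 higher at an unadjusted p under 0.05). AKR1C1, which inactivates progestins, read 560.0, 556 and 543 and then 338, 378 and 304 (change -0.68 ± 0.11, adjusted p = 0.00344), and AKR1C2, which inactivates DHT, 645, 632 and 623 and then 431, 483 and 401 (change -0.52 ± 0.10, adjusted p = 0.00797). These 2 genes are near copies of each other, so which of them a probe set reads is uncertain. HSD17B11, a steroid dehydrogenase, fell by 0.24. SULT1A1, a sulfotransferase, fell by 0.30, but another of its probe sets, which stood for it without probe sets that may cross-hybridise, had 0.12. All 4 were called without each EtOH array in turn, and 0 members with the GAPDH ratio as covariate. Of 15 receptor partners 1 rose and 2 fell (6.67% and 13.3%, against 5.37% and 5.87% of all genes, median -0.04). Without any single EtOH array the risen count was 0 and the fallen count 0, or 1 without siControl C.

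KRT18, a luminal keratin, was lower and read 5408, 5488 and 5168 with siControl and 3535, 3699 and 3717 with siERG (change -0.55 ± 0.069, adjusted p = 0.000761). KRT8, its partner in the filament, read 2657, 2736 and 2639 and 2117, 2188 and 2087 (change -0.33 ± 0.078, adjusted p = 0.0238), and its adjusted p rose to 0.0559 to 0.0775 without any one of the 6 arrays. OCLN, a tight junction protein, fell from 3654, 3879 and 3798 to 3057, 3123 and 3045 (change -0.29 ± 0.052, adjusted p = 0.00528). Over the list of 23 luminal keratins and junction genes 3 fell and 1 rose (17.4% called, median -0.033); the risen count was 0 without siControl A or siERG B and 2 without siControl B. Of the 3 basal genes tested 2 fell, CD44 and ITGA6, and 0 rose; 1 was called without siControl A or siERG A and 0 without any of the other 4 arrays. Mesenchymal genes gave 4 risen and 1 fallen of 12 (33.3% and 8.33%, median 0.015). SNAI2 led them, FBN1, the microfibril protein fibrillin-1, fell from 184, 199 and 185 to 137, 148 and 137 (change -0.39 ± 0.051, adjusted p = 0.000984), and the risen count was 1 without siERG B or C and 2 without siControl A, B or C or siERG A. The list's fallen count was 2 without siERG C.

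Of 15 neuroendocrine genes 2 fell and 1 rose (13.3% and 6.67%, against 5.87% and 5.37% of all genes, median 0.031). Beside INSM1, DDC, the decarboxylase that makes dopamine and serotonin, read 7829.9, 8496 and 8375 with siControl and 4835, 4436 and 4599 with siERG (change -0.83 ± 0.064, adjusted p = 3.91e-05). SYT4, a synaptotagmin, rose from 1999.9, 2734 and 2465 to 3429, 3496 and 3342 (change 0.52 ± 0.11, adjusted p = 0.0112), and the risen count was 2 without siERG B. Developmental transcription factors gave 6 fallen and 2 risen of 33 (18.2% and 6.06%, median -0.013). SIM2, a bHLH factor raised in prostate cancer, read 1813, 1858 and 1530.4 and then 1226, 1244 and 1253 (change -0.47 ± 0.072, adjusted p = 0.00229), and IRX4 542, 518 and 487 and then 393, 409 and 390.3 (change -0.36 ± 0.073, adjusted p = 0.0101). CITED2, a co-regulator that restrains hypoxia factors, rose from 525, 491 and 511 to 703, 714 and 739 (change 0.48 ± 0.059, adjusted p = 0.000677). Among 47 chromatin modifiers 6 fell and 1 rose (12.8% and 2.13%, median -0.003). SMARCA2, an ATPase of the SWI/SNF complex, read 1393, 1403 and 1432 and then 1038, 966 and 983 (change -0.50 ± 0.047, adjusted p = 0.000138), and HDAC1, a histone deacetylase, 3436, 3449 and 3206 and then 2675, 2639.7 and 2617 (change -0.34 ± 0.05, adjusted p = 0.00171). Without _x_at and _s_at probe sets another SMARCA2 probe set had -0.02 (adjusted p = 0.939).

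HLA and antigen presentation gave 4 fallen and 0 risen of 21 (19.0%, median -0.071; 3 higher at an unadjusted p under 0.05). Fallen members numbered 3 or 4 without single arrays, and 1 member rose without siERG A or siERG C. HLA-DPA1, an MHC class II chain, read 72.3, 72.8 and 65.6 and then 55.5, 46.1 and 52.9 (change -0.35 ± 0.061, adjusted p = 0.00458), and TAPBP, tapasin, 1354, 1268 and 1273 and then 967, 1076 and 918 (change -0.39 ± 0.075, adjusted p = 0.00787). With probe sets averaged TAPBP had -0.10 (adjusted p = 0.53). Interferon response genes, which an siRNA can induce, gave 1 risen and 1 fallen of 35 (5.71% called against 11.2% of all genes). Their median was -0.13 and 10 of the 35 changes were positive, against 0.008 and 6707 of 12840 for all genes. The number fallen was 0 without any single array, and the number risen 0 without siControl A, siControl C, siERG B or siERG C and 2 without siControl B. The 15 genes of the RNA interference machinery gave 0 calls in limma, with 2 higher and 1 lower at an unadjusted p under 0.05 (median 0.02). The smallest adjusted p among them was 0.173 for AGO3, an Argonaute protein. NF-kB targets gave 2 risen and 2 fallen of 21 (9.52% each, against 5.37% risen and 5.87% fallen of all genes, median 0.019). CCL2 went up from 57.0, 58.5 and 62.0 to 84.7, 87.7 and 84.3 (change 0.43 ± 0.07, adjusted p = 0.00335). CXCL1 went down from 164, 157 and 158 to 109, 105 and 121 (change -0.46 ± 0.069, adjusted p = 0.00201). Without siControl A, siERG B or siERG C 1 was called as risen, and without siControl B, siControl C, siERG B or siERG C 1 as fallen. Of 7 non-epithelial genes tested 2 fell, LYZ and PECAM1, and LUM rose by 0.46; PECAM1 was not called without any siControl array or siERG B or C.

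Of 31 integrin and adhesion genes 3 fell and 0 rose, so 9.68% were called against 11.2% of all genes. The median was -0.011, 3 were higher at an unadjusted p under 0.05, and 1 was called as risen without siERG C. SDC4, a syndecan, went down from 1341, 1318 and 1324 to 925, 982 and 945 (change -0.48 ± 0.048, adjusted p = 0.000192). Ion channels and calcium genes gave 7 fallen and 1 risen of 34 (20.6% and 2.94%, median -0.071). ITPR3, the inositol trisphosphate receptor of epithelia, read 451, 395 and 353 and then 212, 237 and 224 (change -0.78 ± 0.093, adjusted p = 0.000534); without the probe sets that may cross-hybridise another ITPR3 probe set stood for it, at 0.078 ± 0.23. The fallen count of the list was 2 without siControl B, 3 without siERG A or B and 4 without siControl A or siERG C, and the risen count 0 without siControl A, siControl C, siERG B or siERG C. Of 24 axon guidance genes 0 were called by limma (median 0.002), with 3 higher and 1 lower at an unadjusted p under 0.05. The smallest adjusted p was 0.0505 for NRXN3, a neurexin; 1 gene rose without siERG A and 2 without siControl B.

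Hypoxia and glycolysis gave 7 fallen and 1 risen of 40 (17.5% and 2.50%, median -0.035), but without any single EtOH array the fallen count was 2 or 3 (2 without siControl A, siERG B or siERG C), and the risen count was 0 without siControl A, siControl B, siERG B or siERG C. EPAS1 and CA12, a carbonic anhydrase, were called in each of those fits; CA12 read 1641, 1712 and 1618 and then 982, 997 and 1002 (change -0.73 ± 0.073, adjusted p = 0.000191). Respiratory chain and mitochondrial genes gave 1 risen and 1 fallen of 41 (4.88% called, median -0.028), each at 0 without any siControl array or siERG B, the risen count also at 0 without siERG C and the fallen count without siERG A. For autophagy and lysosome 4 of 35 fell and 0 rose (11.4%, median 0.004; 5 higher at an unadjusted p under 0.05). The number fallen was 2 without siControl B or C or siERG B or C. TFEB, the master factor of lysosome genes, read 121, 108 and 111 with siControl and 63.3, 71.5 and 75.3 with siERG (change -0.59 ± 0.069, adjusted p = 0.000486).

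**Figure D4:**
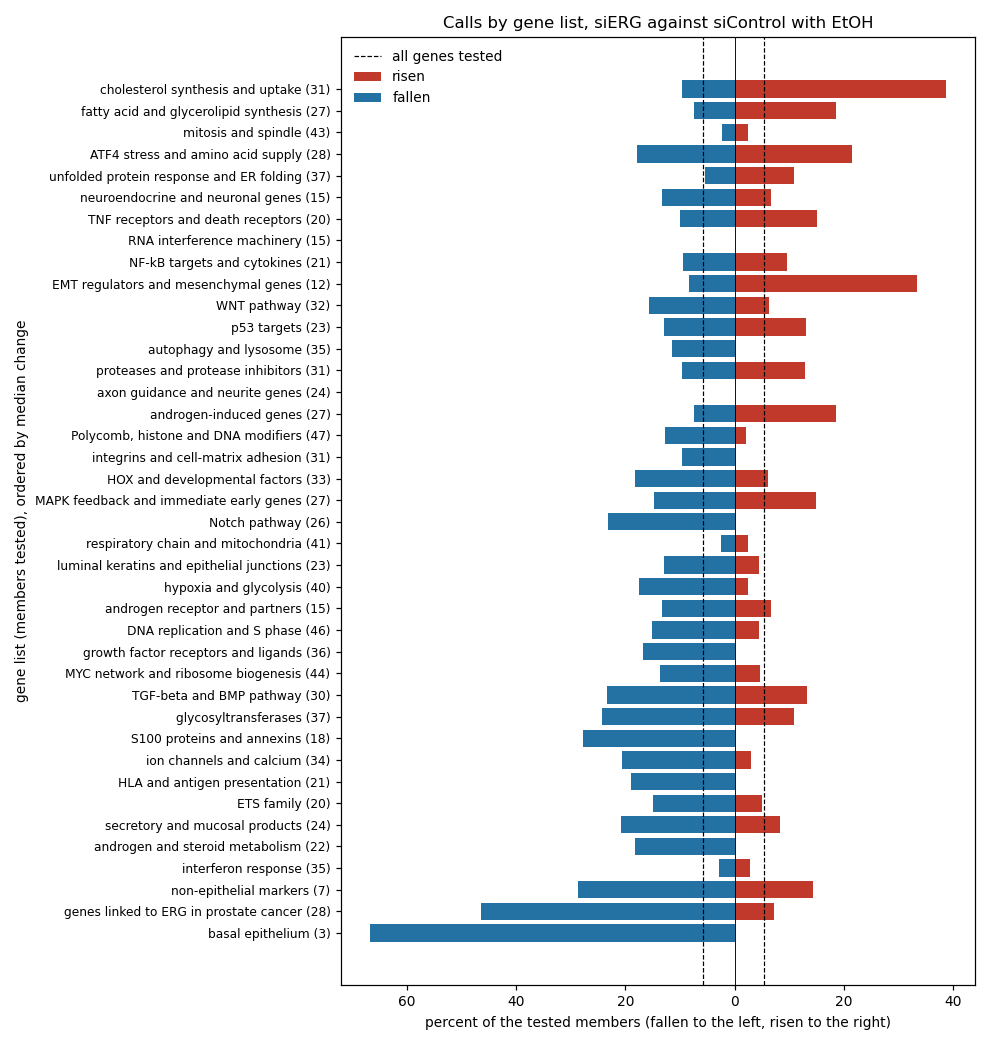
Percent of the tested members of each gene list described that rose (right, red) or fell (left, blue) with siERG in EtOH, ordered by median change; dashed lines are the percents of all 12840 genes, 5.37 risen and 5.87 fallen, and the number tested is in parentheses. The cholesterol list reaches 38.7% risen and the list linked to ERG 46.4% fallen, while the 3 basal genes make a long bar from 2 genes. All lists were chosen with earlier results of these data known.

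Other probe sets of the same genes gave a view that the choice of the brightest probe set did not use. In the fit of 29318 single probe sets 2694 passed (9.19%). The called genes had 1373 further tested probe sets, spread over 755 genes. Of these 1168 (85.1%) had the sign of the gene, 471 (34.3%) passed in its direction, and 6 passed in the opposite one. The 5 widest disagreements in which both passed were those of GDF15, ID2-AS1, ATP10A, SCD and NECTIN2. GDF15, a stress cytokine, fell by 0.60 on its brightest probe set, while another rose by 0.61 (adjusted p = 0.0434). The noncoding gene ID2-AS1 rose by 0.34 while its other probe set fell by 0.55, and for ATP10A, a lipid flippase, the values were 0.31 and -0.46. NECTIN2, an adhesion molecule, had -0.22 and 0.44. SCD, the stearoyl-CoA desaturase, rose on both, by 0.26 and 0.93. With all probe sets of a gene averaged, several named genes were still called but with smaller changes: TGM4 had -0.42, EPAS1 -0.39, GPX2 -0.48, INSM1 -0.78, TNFRSF19 0.45, ZFP69B 0.48, DDC -0.49 and STEAP4 -0.37. The same held for HBEGF (-0.21), BAX (-0.17), IDI1 (0.25), ABCG1 (-0.35), AKR1C1 (-0.33), ITPR3 (-0.39), SIM2 (-0.23) and SMARCA2 (-0.30). SCN3B was not called (0.40 (adjusted p = 0.305)). A further 5311 tested probe sets name no single gene, and 184 of them rose and 184 fell.

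With DHT in place of EtOH, on 6 other VCaP arrays, siERG called 1152 of the same 12840 genes (8.97%), 487 higher (3.79%) and 665 lower (5.18%). Of the 690 genes risen with EtOH, 624 (90.4%) had a positive change with DHT and 255 (37.0%) were called as risen there, with 4 called as fallen. Of the 754 fallen genes 695 (92.2%) had a negative change with DHT and 386 (51.2%) were called as fallen, with 3 called as risen. Among the stronger changes, of 0.5 or more, 121 of 145 fallen genes (83.4%) and 40 of 78 risen genes (51.3%) were called in the same direction with DHT. The medians of these fallen genes were -0.65 with EtOH and -0.64 with DHT, and those of the risen genes 0.586 and 0.34. The genes were chosen by their calls and changes with EtOH. The DHT arrays entered those calls through the common spread, the intensity filter and the choice of probe set. The calls of the treatments are therefore not independent of each other. S100P, at -1.88 with EtOH, had -1.68 with DHT, EML6 -1.85, SLPI -1.37 and REG4 -1.22. Of the 12 risen cholesterol genes 7 were also called as risen with DHT.

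**Figure D5:**
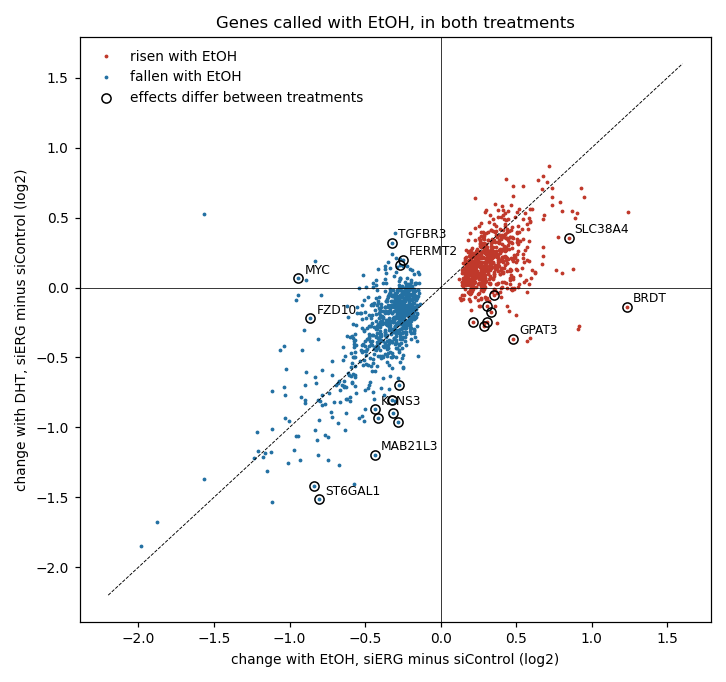
Change with siERG in DHT against the change with siERG in EtOH (both log2) for the 1444 genes called with EtOH, red risen and blue fallen; the dashed line marks equal changes and circles mark genes whose effects differed between the treatments. Most genes keep their sign, with 90.4% of the risen and 92.2% of the fallen on the same side of 0, and MYC lies near 0 with DHT.

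The difference between the siERG effects with DHT and with EtOH was tested directly as an interaction, which 37 genes passed (0.288%), 8 with a higher (0.0623%) and 29 with a lower value with DHT (0.226%). Of these, 23 were among the genes called with EtOH. MYC changed by -0.94 with EtOH and by 0.066 with DHT, where it read 1413, 1623 and 1439.8 with siControl and 1528, 1615 and 1538 with siERG, levels below the 7309 to 7454 of siControl cells in EtOH. BRDT, risen with EtOH, read 37.1, 32.2 and 20.7 and 36.4, 18.5 and 23.0 with DHT, a change of -0.14. ST6GAL1 fell in both, by more with DHT (-0.80 and -1.51), as did KCNS3 (-0.44 and -0.87). TGFBR3 fell with EtOH (-0.32) and rose with DHT (0.32, adjusted p = 0.0097). These calls rest on few arrays: 0 genes passed limma's interaction test without siControl EtOH array B (1323 at an unadjusted p under 0.05) or with the GAPDH ratio as covariate (747 at an unadjusted p under 0.05), 75 without siERG DHT array C, and 4 to 15 without any of the other 10 VCaP arrays.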

How the data were processed

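Total RNA of VCaP cells was hybridised to Affymetrix HG-U133 Plus 2.0 arrays. The authors deposited 1 linear intensity per probe set and array, for 54675 probe sets on 24 arrays. The sources used here do not give the summary method or scaling, so their background and scaling were kept as deposited. Precision is limited by the number of arrays, 3 per group.

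Probe sets were named from GEO's platform annotation, in which 41097 name a single gene (19777 genes), 1801 several, and the others none; 19735 gene identifiers matched the RefSeq table. Of a gene's probe sets, the brightest by mean log2 value over the 24 arrays stood for it. Genes above the array median on at least 3 of the 12 VCaP arrays were tested (12840). With limma 3.58.1 in R 4.3.3, log2(intensity + 16) was fitted in 4 groups (siRNA by treatment) with a common spread, and p-values were adjusted by Benjamini-Hochberg and called at 0.05, two-sided. Folds are on that scale and understate changes of dim probe sets. The script was tested on simulated data. Ratios of control probe sets were compared by exact permutation tests in scipy 1.17.1 under Python 3.11.15, and figures drawn with matplotlib 3.10.9.

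Named genes were those with the 15 largest rises and 15 largest falls among calls whose groups did not overlap; up to 4 risen and 4 fallen per list by smallest adjusted p; the 5 highest and 5 lowest interactions; ERG, TMPRSS2, KLK3 and MYC; the 5 widest disagreements between probe sets; and cell type markers. The members and the 41 lists (1097 genes tested) were chosen with earlier results of these data known. The result of 1 list is not reported here. Genes without a single-gene probe set in the annotation, and the LNCaP arrays, were not analysed here. Alternatives were other summaries, filters, scalings, pseudocounts, variance models, covariates, a replicate block, and each array left out.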

Additional observations from a re-analysis of the deposited data

Results flagged for a closer look

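For 14 of the genes named, the siERG effect with DHT differed from that with EtOH in a direct test (limma, interaction term, adjusted p under 0.05 over 12840 genes). The values are the effect with DHT minus the effect with EtOH, on the log2 scale.

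Among enzymes of sugar chains and lipids, ST3GAL1 had -0.97, ST6GAL1 -0.71 and GPAT3 -0.84. Among receptors, adhesion and transport genes, NEO1 had 0.55, FZD10 0.64, TGFBR3 0.64, FERMT2 0.45, KCNS3 -0.43 and SLC38A4 -0.49. The regulators MYC and BRDT had 1.01 and -1.37, and the polyamine enzyme SRM 0.51. The noncoding gene LINC00920 had -1.01 and MAB21L3 -0.76.

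None of the 14 changed sign under any alternative in which it was tested. KCNS3 remained called under 21 of 25 alternatives, ST6GAL1 under 21 of 24 and SLC38A4 under 19 of 24. MYC remained called under 11 of 24, with adjusted p from 0.0172 to 0.834, and BRDT under 7 of 25, with adjusted p from 0.0155 to 0.834. Without siControl EtOH array B none of the 14 was called.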

How the results depend on the processing

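Across the alternatives the number of genes called with EtOH was 275 with the GAPDH ratio as covariate and 2235 with array weights, against 1444, and 802 to 1965 without single arrays. For probe sets, against 2694, it was 1525 without _x_at and _s_at probe sets, 1453 with no intensity filter, 337 with the GAPDH covariate, and 1411 to 3514 without single arrays. For DHT, against 1152, it was 2213 with array weights, 527 in a fit of 2 groups, 272 with the GAPDH and 659 with the ACTB covariate, and 682 to 1584 without single arrays. Interaction calls, against 37, were 17 with averaged probe sets, 19 without _x_at and _s_at probe sets, 8 with no filter, 21 after centring, 157 with array weights, 0 with the GAPDH covariate, 8 with the ACTB covariate, and 0 to 75 without single arrays. List members called, against 227, were 65 with the GAPDH covariate and 139 to 275 without single arrays. With the replicate block 1168 genes were called with EtOH (562 risen, 606 fallen) and 930 with DHT. For limma's interaction test the block left 0 calls (1297 at an unadjusted p under 0.05). Deviations of same-lettered EtOH arrays from their group means correlated at -0.06, 0.036 and -0.117. With 3 arrays per group these values cannot show whether arrays of the same letter share a batch. With averaged probe sets 7 named genes changed sign, to -0.031 (TCF4), 0.058 (GDF15), 0.033 (ACVR1B), 0.13 (DUSP1), 0.026 (ATF6), -0.11 (ID2-AS1) and -0.15 (ATP10A). Without _x_at and _s_at probe sets 3 did, to 0.11 (PPAT), 0.12 (SULT1A1) and 0.078 (ITPR3); there another probe set stands for the gene. The cause of the other shifts was not tested.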
